A study of Mus musculus with 23 samples.

Results

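The expression of the genes of the motile cilium was examined in lung RNA-Seq libraries from 23 adult mouse offspring. Members were chosen by gene symbol alone: numbered genes of the Cfap, Dnah, Dnaaf, Dnai, Rsph, Tekt, Drc and Spag series, together with Foxj1, Mcidas, Rfx2, Rfx3, Ccdc39, Ccdc40, Ccdc113, Ccdc153, Tmem212, Dynlrb2 and Hydin, and without the spindle gene Spag5. Of the 35322 genes listed, 93 carried such a symbol. A filter of at least 0.5 RPM (reads of a gene relative to all reads of its library) in at least 4 of the 23 libraries kept 83 of them among 16795 genes. The 10 members that did not pass were Dnah7a, Dnah7b, Dnah7c, Dnah14, Spag17os, Rsph3a, Rsph6a, Spag11a, Spag11b and Cfap97d1. The level of 0.5 RPM was reached in at least 4 saline libraries by 80 of the 83 members and in at least 4 OVA libraries by 76. Cfap73, Cfap99, Tekt3, Mcidas and Rsph3b reached it in 4 saline but not in 4 OVA libraries and Spag6 in OVA libraries alone, so for these 6 the filter favours a difference in that direction. Just inside the filter lay Dnah17, which reached 0.507 RPM or more in 4 libraries, and just outside it Rsph3a, which reached 0.26 RPM in 4.

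A motile cilium is a beating hair on multiciliated cells, which in the lung line the airways and move mucus out of them. Its core, the axoneme, is a ring of microtubule doublets around a central pair. Outer and inner dynein arms slide the doublets, the nexin-dynein regulatory complex and the radial spokes control the sliding, and tektins and other inner proteins line the tubules. Dynein arms are put together in the cytoplasm by assembly factors. Foxj1, Mcidas and the Rfx factors switch these genes on in cells that become multiciliated.

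The mice were Balb/c, 13 weeks old and, by the title of the study, female. Sham offspring (n = 7) came from dams given saline and PM offspring (n = 7) from dams given PM2.5, the fine fraction of air pollution particles, and neither was challenged with ovalbumin (OVA). Sham-OVA (n = 5) and PM-OVA (n = 4) offspring of the same kinds of dam were sensitised to and challenged with OVA, which induces allergic airway disease. The unchallenged groups are called saline here; the labels name their treatment PBS and the methods nebulised saline. The comparisons ask how OVA changed these genes in the offspring of each kind of dam, and whether maternal exposure altered that change. The labels do not say which offspring shared a dam or litter, so p-values measure the spread between these samples.

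Reads on genes ranged from 13827228 to 16671489 per library in Sham and 13089691 to 17393579 in PM, while the OVA groups ranged from 2298645 to 12185451 (Sham-OVA) and 4324326 to 12355561 (PM-OVA). The 3 shallowest OVA libraries were replicate 3 among the Sham-OVA and replicates 3 and 4 among the PM-OVA samples. Sham replicate 1 stood apart from its label: Xist, the X-inactivation transcript, was at 0.289 RPM there and at 528 to 1618 RPM in the other saline libraries, and the Y-linked gene Eif2s3y was at 54 RPM there and listed at 0 elsewhere. It was kept in its group, and counts without it are given below. Defining genes of multiciliated cells were found in all 23 libraries, with Foxj1 at 19.2 to 255 RPM and Ccdc153 at 5.84 to 70.9 RPM. Both are members and had to pass the filter. Outside the rule, Sntn was at 1.67 to 15 RPM, Fam183b at 3.06 to 29.2, Ccdc78 at 2.08 to 22.1 and Dnali1 at 4.93 to 38.4. Of genes of deuterosomes, described below, Ccno was found in 23 libraries, Deup1 in 22 and Cdc20b in 19. Because many members are also testis genes, genes of male germ cells were checked. Prm2 and Tnp1, which pack sperm chromatin, were listed at 0 in all 23 libraries, and Prm1 did not exceed 0.182 RPM. Of the 11 germ cell genes listed, 6 were at 0 in every library. The 1 that passed the filter was at 32.3 to 74.6 RPM across the libraries and was called in neither cohort (−0.27 and 0.04). Not all such genes were thus silent.

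Promoters were searched for sequence motifs, which the choice by symbol did not use. Windows of 300 bases, from 250 before to 50 after an annotated start (RefSeq, GRCm38.p6), were matched for 68 of the 83 members, in 76 windows. The X-box is the palindrome that Rfx factors bind. A full X-box on either strand lay in 12 of the 76 member windows (15.8%) and in 502 of all 32851 windows (1.53%). By gene, 11 of the 68 members held one (16.2%), against 1.75% of all genes, and most members held none. The shorter motif GTTGCC, which is part of many full matches, lay in 42.1% of the member windows and 12.5% of all. The forkhead core TGTTTAC, the kind of sequence that Foxj1 binds, lay in 5.26% and 3.65%. The 12 distinct full matches began between 188 bases before the start and 10 after it, with a median of 32 before; 1 match lay in a pair of overlapping Tekt2 windows and was counted once, from the nearer start. Windows are shown for Dynlrb2, called higher after OVA in both cohorts, for Hydin, called lower in both, for Cfap44 and Spag16, called lower in Sham offspring and not called in PM offspring, and for Cfap298, which holds 2 matches. Capitals mark the X-box, and each is written 5′ to 3′ on the strand of its gene.
Dynlrb2, chr8:116504765-116505064, plus strand: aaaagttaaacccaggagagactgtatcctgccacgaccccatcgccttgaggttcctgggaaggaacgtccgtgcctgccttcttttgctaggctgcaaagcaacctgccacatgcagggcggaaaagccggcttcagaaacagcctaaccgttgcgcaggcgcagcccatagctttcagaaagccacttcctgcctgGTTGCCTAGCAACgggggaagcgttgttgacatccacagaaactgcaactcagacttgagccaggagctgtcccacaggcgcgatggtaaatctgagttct
Hydin, chr8:110266727-110267026, plus strand: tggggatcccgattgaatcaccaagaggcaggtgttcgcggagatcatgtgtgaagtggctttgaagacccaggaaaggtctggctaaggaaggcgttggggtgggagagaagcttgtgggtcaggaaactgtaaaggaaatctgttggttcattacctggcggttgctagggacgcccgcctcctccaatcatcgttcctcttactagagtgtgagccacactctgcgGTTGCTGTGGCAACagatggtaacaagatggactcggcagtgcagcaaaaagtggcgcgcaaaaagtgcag
Cfap44, chr16:44394549-44394848, plus strand: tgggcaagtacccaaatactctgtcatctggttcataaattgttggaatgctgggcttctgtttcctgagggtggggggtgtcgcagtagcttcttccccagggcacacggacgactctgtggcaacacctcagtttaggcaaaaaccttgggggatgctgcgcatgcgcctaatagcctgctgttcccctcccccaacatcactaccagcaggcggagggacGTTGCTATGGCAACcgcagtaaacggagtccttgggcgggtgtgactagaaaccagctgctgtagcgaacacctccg
Spag16, chr1:69826720-69827019, plus strand: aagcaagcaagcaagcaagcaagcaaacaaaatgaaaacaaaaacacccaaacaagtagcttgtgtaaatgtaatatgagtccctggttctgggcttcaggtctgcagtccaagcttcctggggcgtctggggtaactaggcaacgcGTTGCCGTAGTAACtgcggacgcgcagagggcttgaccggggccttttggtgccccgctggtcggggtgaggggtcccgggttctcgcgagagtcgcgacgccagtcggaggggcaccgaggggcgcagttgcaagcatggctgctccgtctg
Cfap298, chr16:90934800-90935099, minus strand: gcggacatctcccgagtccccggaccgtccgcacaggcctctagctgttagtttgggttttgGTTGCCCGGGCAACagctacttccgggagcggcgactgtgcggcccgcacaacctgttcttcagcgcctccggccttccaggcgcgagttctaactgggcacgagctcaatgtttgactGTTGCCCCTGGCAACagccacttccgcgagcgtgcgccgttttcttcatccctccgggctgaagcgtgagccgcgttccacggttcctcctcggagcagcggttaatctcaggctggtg
A match describes letters and is not a measured site. The calls of Cfap44 (−0.88 in Sham and 0.40 in PM offspring) turned on the setting: with median-of-ratios scaling it was not called in Sham offspring (−0.53) and was called higher in PM offspring (0.76), as it was with quantile normalisation, DESeq2, edgeR and the length and GC trend removed. The 11 members with a full X-box in a window had a median log2 fold change after OVA of −0.88 in Sham and −0.04 in PM offspring, and the 57 without one had −0.75 and 0.21. Genes with the match lay at both ends of the range, as Dynlrb2 and Hydin show below. No window was matched for Foxj1, Dnah3, Dnah2os, Dnaaf1, Rsph1, Rsph4a, Rsph10b, Spag1, Cfap53, Cfap54, Cfap65, Cfap73, Cfap97, Cfap157 and Cfap299.

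After OVA, more motile cilium genes were lower than higher in Sham offspring, as was the case for all genes. In PM offspring more of them were higher than lower, while more of all genes were lower than higher. Values were compared on the log2(RPM + 0.5) scale with limma over all 16795 genes, and a gene was called at an adjusted p under 0.05. In Sham-OVA against Sham, 4 of the 83 members were called higher, as were 20.6% of all genes, and 48 were called lower, as were 47.5%. In PM-OVA against PM, 22 members were called higher and 11 lower, where 20.1% and 45.2% of all genes were. The median log2 fold change of the members was −0.81 in Sham and 0.16 in PM offspring, and that of all genes was −0.48 and −0.43. Above the median of all genes lay 27 members in Sham and 62 in PM offspring. In bulk tissue, fewer ciliated cells and less RNA per ciliated cell cannot be told apart.

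Both medians depend on the scaling. With median-of-ratios scaling, that of all genes was −0.17 in Sham and −0.13 in PM offspring and that of the members −0.48 and 0.40. The members were then called 6 higher and 31 lower in Sham offspring, and 34 higher and 9 lower in PM offspring, where 29.2%, 38.1%, 28.9% and 35.7% of all genes were. Quantile normalisation gave 8 higher and 24 lower, and 42 higher and 6 lower, where 32.7%, 34.6%, 31.5% and 32.4% of all genes were. DESeq2 gave 7 and 29, and 41 and 6, where 31.7%, 38.3%, 32.1% and 32.5% of all genes were, and edgeR gave 8 and 23, and 40 and 4, where 33.2%, 33.8%, 30.5% and 30.3% were. Without Sham replicate 1, 4 members were higher and 47 lower in Sham offspring (19.4% and 46.3% of all genes). Without PM-OVA replicate 2, 16 were higher and 20 lower in PM offspring (18.5% and 47.4% of all genes), with a median of −0.10. At an adjusted p under 0.000001 with an absolute log2 fold change above 1, the threshold of the study, limma called 0 members in both cohorts, where 4.51% (Sham) and 0.286% (PM) of all genes were called. It gave an unadjusted p under 0.05 for 53 and 35 members, and for 70.9% and 68.8% of all genes. At the same threshold DESeq2 on the recovered reads called 6 members in Sham offspring (28.9% of all genes), Cfap410 and Spag7 higher and Ccdc39, Dnah3, Hydin and Spag9 lower. In PM offspring it called 12 (17%), with Spag9 lower and Foxj1, Dynlrb2, Cfap126, Tmem212, Rsph1, Tekt1, Ccdc153, Cfap100, Cfap206, Cfap410 and Spag7 higher. edgeR called 1, Spag7, in Sham (8.26%) and 0 in PM offspring (0.25%).

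**Figure D1:**
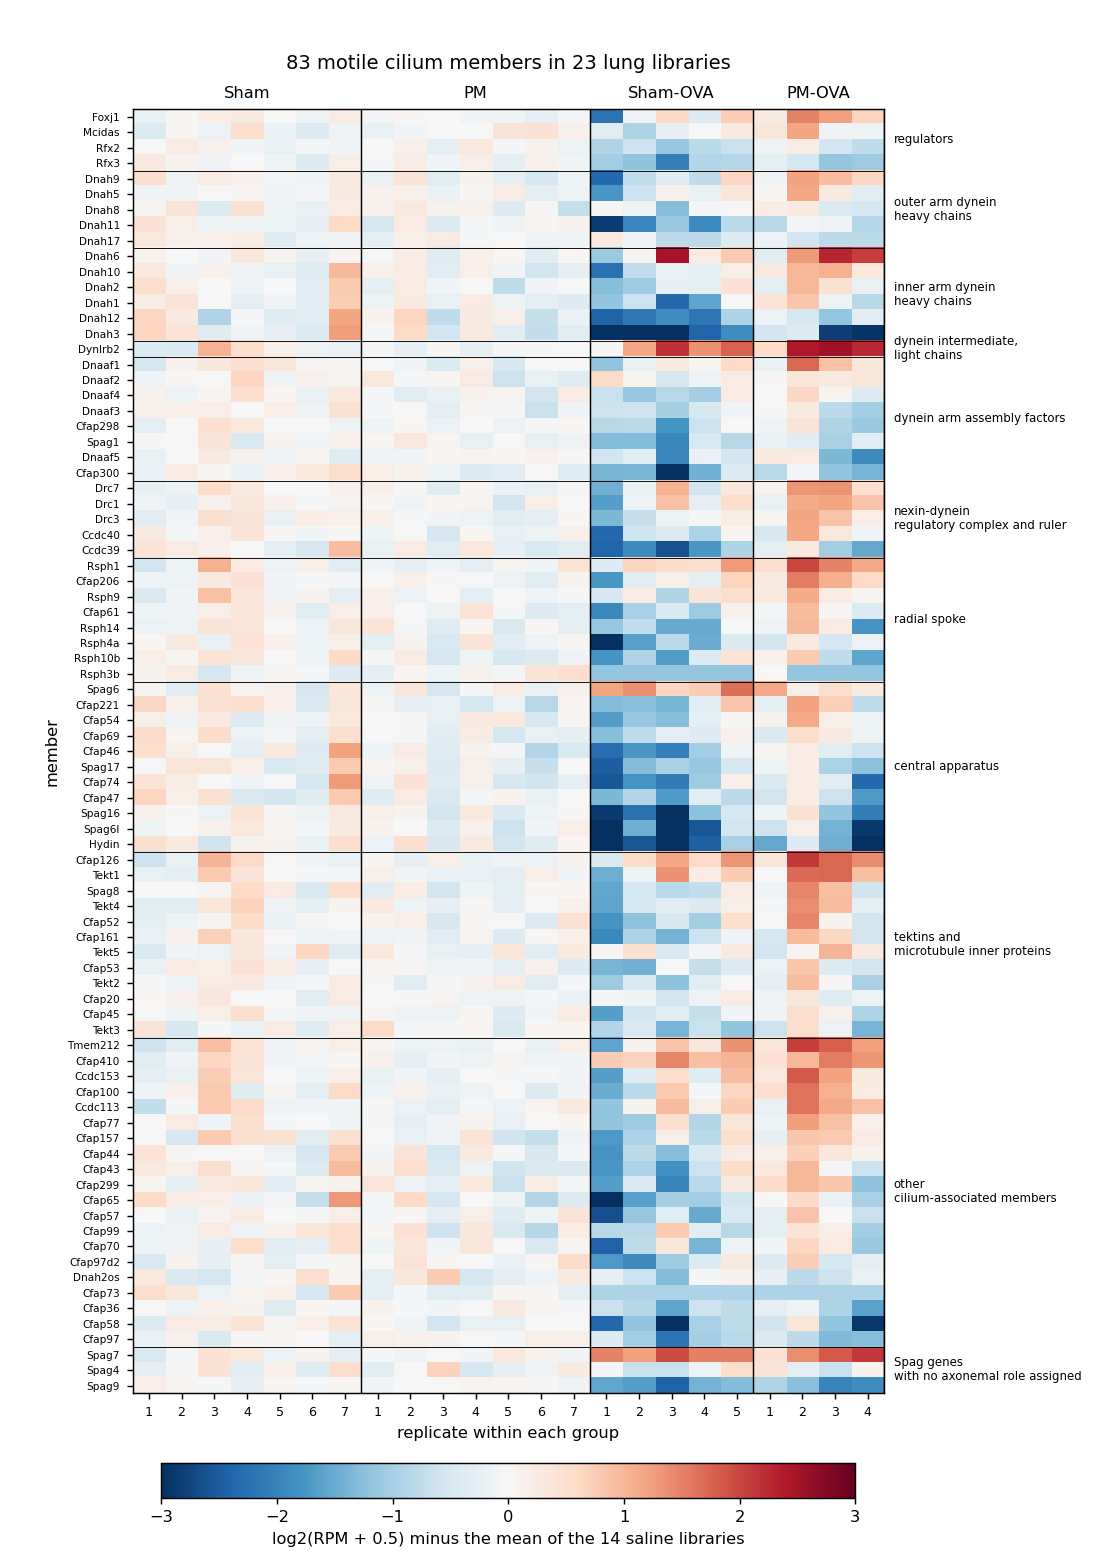
Each cell is log2(RPM + 0.5) of 1 member (rows, grouped by role) in 1 library (columns, by group and replicate) minus its mean over the 14 saline libraries, with the colour scale ended at −3 and 3. Sham-OVA replicate 1 is below the saline mean for most members and PM-OVA replicate 2 above it.

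By their calls in both cohorts, 37 members were lower in Sham and not called in PM offspring, 17 were not called in Sham and higher in PM offspring, 10 were lower in both and 4 were higher in both. The 4 higher in both were Dynlrb2, Spag6, Cfap410 and Spag7. Dnah9 was lower in Sham and higher in PM offspring, Dnah17 was lower in PM offspring (−0.55, not called with quantile normalisation, DESeq2, edgeR, the length and GC trend removed or without the 3 shallowest OVA libraries) and not called in Sham offspring, and 13 members were called in neither cohort. Shares of all genes in these joint classes are not given, so the counts describe the members alone and do not set them apart from other genes. Whether the 2 cohorts differed was tested as an interaction, given below. All OVA libraries lay above all saline libraries for 3 members in Sham (13.2% of all genes) and 11 in PM offspring (13.3%), and below them for 19 (35%) and 4 (28.6%).

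**Figure D2:**
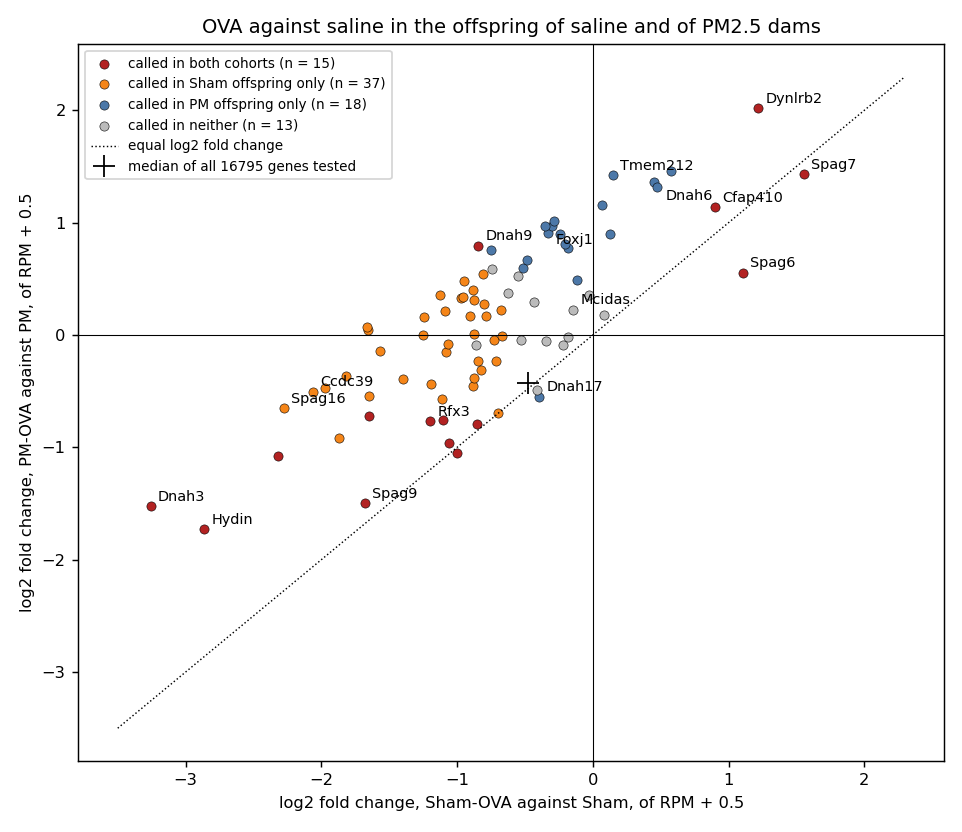
Each point is 1 of the 83 members, with its log2 fold change in Sham offspring on the x axis and in PM offspring on the y axis, coloured by where it was called. Most points lie above the dotted line of equal change, and the cross marks the median of all genes, at −0.48 and −0.43.

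Among the regulators, Foxj1, the forkhead factor that drives the motile cilium programme, rose in PM offspring. It was at 79.7 to 110 RPM (median 92.9) in Sham and 77.1 to 94.6 RPM (median 87.6) in PM. The PM-OVA libraries held 109, 255, 215 and 145 RPM, all above every PM library (log2 fold change 0.97 ± 0.20 SE, limma adjusted p = 0.001); errors of log2 fold changes are SE throughout. The Sham-OVA libraries held 19.2, 82.1, 136, 69.2 and 153 RPM, on both sides of the Sham range, with a log2 fold change of −0.35 ± 0.38 (adjusted p = 0.42) and a 95% interval from −1.16 to 0.45. The rise in PM-OVA kept its call in 26 of 26 alternatives, between 0.44 and 1.47. The sign in Sham offspring turned with the setting, between −0.79 and 0.49, and was called in 0 of 27.

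Rfx3, a factor that binds the X-box, fell in both cohorts. It was at 17.6 to 28.7 RPM in Sham and 11.2, 9.93, 5.28, 12.6 and 12.7 RPM in Sham-OVA, with no overlap (−1.2 ± 0.21, adjusted p = 0.000178). It was at 19.4 to 27.8 RPM in PM and 19.6, 16.3, 10.2 and 10.9 RPM in PM-OVA, where 3 of 4 lay below the PM range (−0.77 ± 0.19, adjusted p = 0.00376). With the trend over length and GC content removed neither was called, at −0.22 and 0.24. Rfx2, its paralog, was at 17.8 to 25.1 RPM in Sham and 10.9, 13.4, 9.32, 11.6 and 12.9 RPM in Sham-OVA, also without overlap (−0.83 ± 0.15, adjusted p = 0.000202), and was not called in PM offspring (−0.31 ± 0.19), although it was called lower with array weights (−0.53) and without PM-OVA replicate 2 (−0.48). Mcidas, which acts before Foxj1 in the commitment to multiple cilia, was at or below 1.7 RPM throughout and called in neither cohort, although it was called higher in PM offspring with quantile normalisation (0.67) and without the 3 shallowest OVA libraries (0.68).

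The dynein heavy chains, the motors of the axoneme, did not move as one. Of the 6 inner arm chains tested, 3 were lower and 0 higher in Sham offspring (all genes 47.5% and 20.6%). In PM offspring 2 were higher and 1 lower (all genes 20.1% and 45.2%). Dnah3 had the lowest log2 fold change of the members in Sham offspring. It was at 16.9 to 55.1 RPM (median 20.6) in Sham and 1.67, 1.73, 0.621, 3.9 and 5.77 RPM in Sham-OVA, all below every Sham library (−3.26 ± 0.40, adjusted p = 6.97e-06). It was at 13.4 to 34.2 RPM in PM and 15.3, 16.9, 2.79 and 2.54 RPM in PM-OVA, where the 2 deeper libraries stayed within the PM range and the 2 shallowest lay below it (−1.52 ± 0.48, adjusted p = 0.014). The call in PM offspring was lost without the 3 shallowest OVA libraries (−0.33, adjusted p = 0.37), without PM-OVA replicate 3 or 4 (−1.14 and −1.11), with edgeR (−0.88) and with the length and GC trend removed (−0.73).

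Dnah6, with 1.84 RPM per kb in saline the highest of the inner arm chains per length, was called higher in PM offspring. It was at 18.6 to 28.1 RPM in PM and 18.9, 59.6, 119 and 104 RPM in PM-OVA (1.37 ± 0.39, adjusted p = 0.008). It was at 20.6 to 30.8 RPM in Sham and 10.8, 25.7, 136, 28.6 and 41.8 RPM in Sham-OVA (0.45 ± 0.42, adjusted p = 0.348). In Sham offspring it was called higher with DESeq2 (1.64, adjusted p = 0.0118), edgeR (1.61), the length and GC trend removed (1.29) and without Sham-OVA replicate 1 (0.86). Its 3 highest libraries were the 3 shallowest OVA libraries, and without them the PM value was 0.51 with an adjusted p of 0.2. Dnah10, the other chain higher in PM offspring, was at 7.64 to 13.9 RPM in PM and 14.2, 23.6, 25.1 and 14.5 RPM in PM-OVA, with no overlap (0.76 ± 0.22, adjusted p = 0.00966). Dnah12 was at 5.33 to 24.2 RPM in Sham and 1.53, 1.96, 2.49, 1.91 and 5.19 RPM in Sham-OVA, all lower (−1.97 ± 0.35, adjusted p = 0.000159).

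Of the 5 outer arm heavy chains, 2 were lower in Sham offspring (all genes 47.5%). In PM offspring 1 was higher and 1 lower (all genes 20.1% and 45.2%). Dnah9, an outer arm motor of airway cilia, was called in opposite directions. It was at 12.9 to 19.7 RPM in Sham and 2.36, 8.12, 10.6, 7.97 and 21.5 RPM in Sham-OVA, where 4 libraries lay below the Sham range and replicate 5 above it (−0.85 ± 0.36, adjusted p = 0.0472). It was at 9.71 to 18.3 RPM in PM and 12.8, 32.3, 26.8 and 21.6 RPM in PM-OVA, where 3 of 4 lay above the PM range (0.80 ± 0.24, adjusted p = 0.0119). The call in Sham offspring was close to the threshold. It was lost without any 1 of the 7 Sham libraries or Sham-OVA replicate 1, 2 or 4, at −0.44 without replicate 1, and with median-of-ratios scaling (−0.49), quantile normalisation (−0.37), DESeq2 (−0.20), edgeR (−0.15) and the length and GC trend removed (−0.13). The call in PM offspring was lost without the 3 shallowest OVA libraries, at 0.68.

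Dnah11, another outer arm chain, was at 7.21 to 13.2 RPM in Sham and 0.764, 1.81, 3.73, 1.91 and 4.67 RPM in Sham-OVA, with no overlap (−1.82 ± 0.31, adjusted p = 0.000126). It kept that call in 27 of 27 alternatives and was not called in PM offspring (−0.36 ± 0.22). Dnah5, at 1.89 RPM per kb the highest of the outer arm chains per length, was called in neither cohort (−0.43 ± 0.28 and 0.29 ± 0.23). In PM offspring it was called higher with median-of-ratios scaling (0.65), quantile normalisation (0.70), DESeq2 (0.76, adjusted p = 0.00199), edgeR (0.75) and the length and GC trend removed (1.11).

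Dynlrb2, a light chain of the roadblock family, had the highest level per length of all members, 52 RPM per kb in saline, and rose in both cohorts. It was at 20.4 to 58.2 RPM (median 25) in Sham and 28.3, 62.5, 127, 71.5 and 96.3 RPM in Sham-OVA, where 4 of 5 libraries lay above the Sham range (1.22 ± 0.34, adjusted p = 0.00508). It was at 23.4 to 28.3 RPM in PM and 41.7, 148, 163 and 135 RPM in PM-OVA, all above every PM library (2.02 ± 0.30, adjusted p = 0.000177), the highest log2 fold change of the members in PM offspring. With the length and GC trend removed, the call in Sham offspring was lost (0.55, adjusted p = 0.12).

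**Figure D3:**
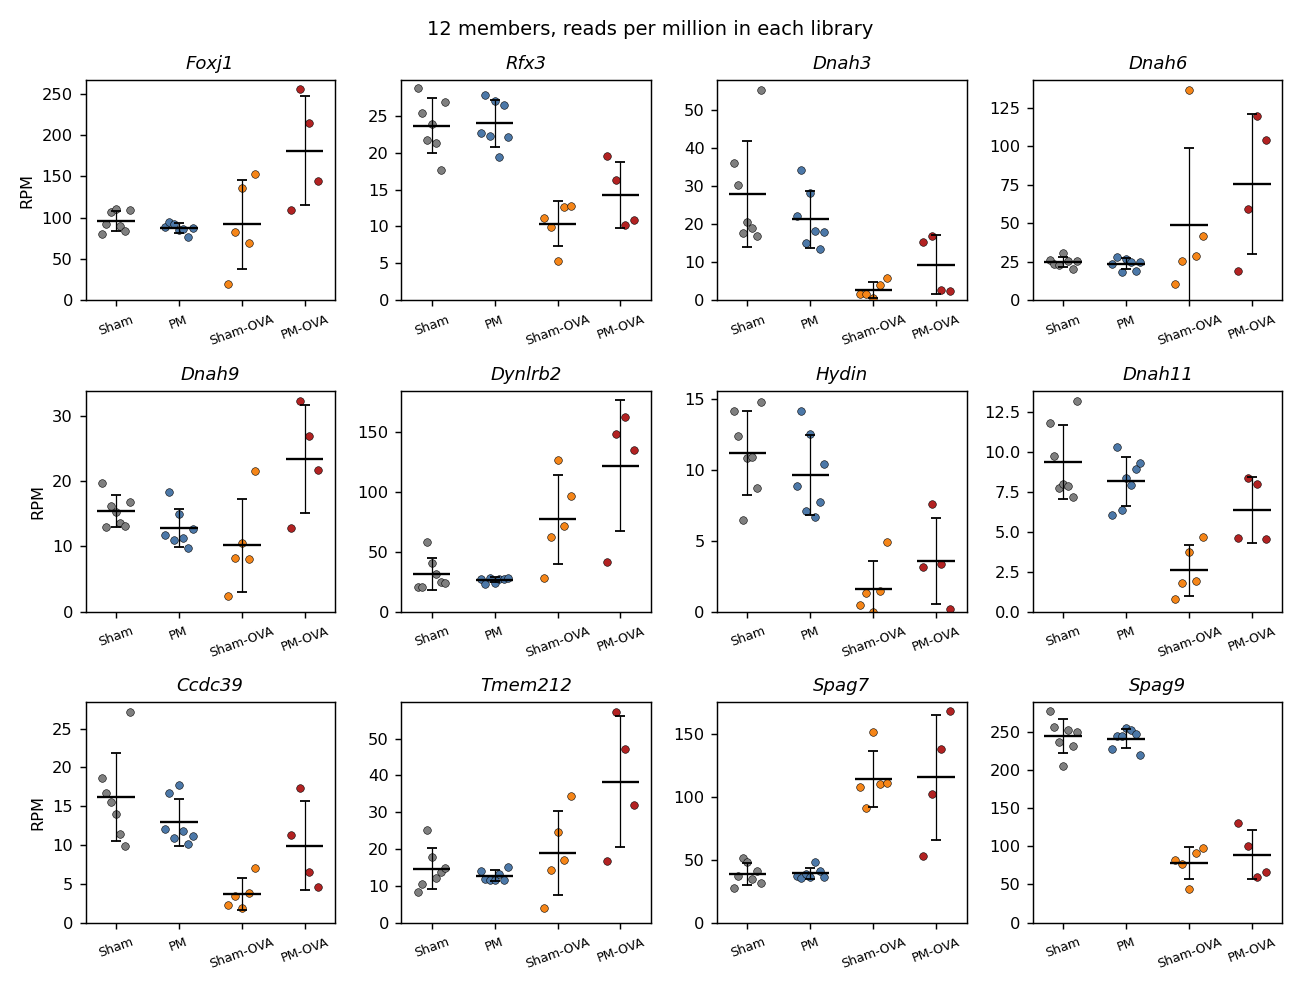
RPM of 12 members (panels, each with its own linear axis from 0) by group; points are libraries in replicate order, horizontal lines are means and bars are 1 SD, ended at 0 where they would pass it. Foxj1, Dnah9 and Tmem212 have their highest mean in PM-OVA, Dnah3, Hydin and Dnah11 their lowest in Sham-OVA, and Spag7 is higher and Spag9 lower in both OVA groups.

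Of the 8 dynein arm assembly factors, 6 were lower and 0 higher in Sham offspring (all genes 47.5% and 20.6%). In PM offspring 1 was lower and 1 higher (all genes 45.2% and 20.1%). Cfap300, which takes part in that assembly, was at 3.11 to 5.47 RPM in Sham and 1.11, 1.13, 0, 1.04 and 2.63 RPM in Sham-OVA, with no overlap (−1.65 ± 0.34, adjusted p = 0.000643). It was called lower in PM offspring too (−0.72 ± 0.26, adjusted p = 0.0247), a call lost without PM-OVA replicate 3 or 4, at −0.61 and −0.54, without the 3 shallowest OVA libraries, at −0.29, and with median-of-ratios scaling (−0.43), DESeq2 (−0.38) and edgeR (−0.39). Dnaaf1 was the factor higher in PM offspring, at 2.46 to 4.08 RPM in PM and 3.09, 13.1, 7.17 and 4.72 RPM in PM-OVA (0.81 ± 0.31, adjusted p = 0.0334). Its call was lost without PM replicate 2, 3 or 5 or PM-OVA replicate 2 or 3, and its value was 0.46 without PM-OVA replicate 2 and 0.40, not called, with the length and GC trend removed. Cfap298, at 13.1 RPM per kb the highest of these factors per length, fell in Sham offspring (−0.88 ± 0.25, adjusted p = 0.00628), a call lost with edgeR (−0.37, adjusted p = 0.108). In PM offspring it was not called (−0.38). It was called lower there with array weights (−0.77), with the length and GC trend removed (−1.06) and without PM-OVA replicate 2 (−0.66). Another annotated gene overlaps 44.2% of the exon bases of Cfap298, 20.7% of those of Dnaaf1 and 32.7% of those of Dnaaf2. For Dnaaf4 the overlap is 59.2%, with a gene on the same strand. Outside this role it is 36.3% for Dnah2os and 20.8% for Tekt2. Without a stated strand setting the reads of such overlapping genes cannot be told apart.

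In the nexin-dynein regulatory complex and its ruler, 2 of 5 members were lower in Sham offspring (all genes 47.5%). In PM offspring 3 were higher (all genes 20.1%). Ccdc39, which with Ccdc40 sets the spacing along the doublet, was at 9.94 to 27.2 RPM in Sham and 2.22, 3.39, 1.86, 3.82 and 7.08 RPM in Sham-OVA, all below every Sham library (−2.06 ± 0.30, adjusted p = 3.06e-05). It was at 10.1 to 17.7 RPM in PM and 11.4, 17.3, 6.51 and 4.54 RPM in PM-OVA, where the 2 shallowest lay below the PM range (−0.50 ± 0.30, adjusted p = 0.16). It was called lower there with array weights (−0.89) and without PM-OVA replicate 2 (−0.82). Drc7 and Drc1, structural subunits of the complex, were higher in PM offspring, at 0.89 ± 0.24 (adjusted p = 0.00611) and 0.77 ± 0.26 (adjusted p = 0.0198). Drc1 lost its call without PM-OVA replicate 2 or 3, at 0.65 and 0.62, without the 3 shallowest OVA libraries, at 0.48, and with the length and GC trend removed, at 0.53.

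Of the 8 radial spoke genes, 5 were lower in Sham offspring (all genes 47.5%). In PM offspring 3 were higher and 1 lower (all genes 20.1% and 45.2%). Rsph1, a spoke head protein and at 7.27 RPM per kb the highest of the group per length, was at 7.9 to 13 RPM in PM and 13.6, 39.9, 27.7 and 21.6 RPM in PM-OVA, with no overlap (1.32 ± 0.25, adjusted p = 0.000683). It was at 6.29 to 20.6 RPM in Sham and 7.16, 15.5, 14.3, 13.5 and 23.9 RPM in Sham-OVA and was not called (0.48 ± 0.30, adjusted p = 0.171), although it was called higher with median-of-ratios scaling (0.83), DESeq2 (0.90) and edgeR (0.96) and without Sham replicate 3 (0.65) or Sham-OVA replicate 1 (0.70). Rsph4a, also of the spoke head, was at 11 to 17.2 RPM in Sham and 1.18, 3.76, 7.15, 4.22 and 9.35 RPM in Sham-OVA, all lower (−1.57 ± 0.34, adjusted p = 0.00092). In PM offspring it was not called (−0.14 ± 0.21).

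A pair of low members were at 0 in whole groups. Rsph3b, a spoke gene with a near-identical copy in Rsph3a, was listed at 0 in 5 of 5 Sham-OVA libraries, against 0.559 ± 0.191 RPM (SD, n = 7) in Sham. Against a limit of 3 reads over the group it was at least 10.7-fold lower. Cfap73 was at 0 in all 9 OVA libraries, at least 11.7-fold lower in Sham-OVA than in Sham and at least 4.77-fold lower in PM-OVA than in PM. Both genes passed the filter through saline libraries, 5 of them for Cfap73 and 11 for Rsph3b, so these folds describe the values that let them pass. The limits cover counting error only.

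The central apparatus held the largest share of lower genes in Sham offspring among the roles with over 1 member, 10 of 11. It had 1 higher gene and a median log2 fold change of −1.4 (all genes 47.5% lower, 20.6% higher, median −0.48). In PM offspring 2 were lower and 1 higher, with a median of −0.39 (all genes 45.2%, 20.1% and −0.43). Hydin, a giant protein of the central pair, was at 6.43 to 14.8 RPM (median 10.9) in Sham and 0.486, 1.28, 0, 1.43 and 4.89 RPM in Sham-OVA, all below every Sham library (−2.86 ± 0.44, adjusted p = 5.21e-05). It was at 6.69 to 14.1 RPM in PM and 3.16, 7.57, 3.32 and 0.182 RPM in PM-OVA, where 3 of 4 lay below the PM range (−1.73 ± 0.51, adjusted p = 0.00942). The call in PM offspring was lost with edgeR (−1.06, adjusted p = 0.0526) and with the length and GC trend removed (−1.04, adjusted p = 0.078), and the value was −1.02 without PM-OVA replicate 4. Cfap46, which fell in Sham offspring from 8.43 ± 3.75 to 2.61 ± 2.12 RPM (SD, n = 7 and 5; −1.66 ± 0.37, adjusted p = 0.00101), was at 5.88 ± 1.57 and 6.2 ± 1.78 RPM in PM and PM-OVA (0.07 ± 0.25; called higher with quantile normalisation, at 0.53, and with the length and GC trend removed, at 0.58). Spag16 was −2.28 in Sham offspring (adjusted p = 0.000531) and −0.65 in PM offspring, where it was called with array weights (−1.19) and without PM-OVA replicate 2 (−1.05). The member called higher was Spag6, at 0.242 ± 0.167 RPM in Sham and 1.11 ± 0.465 RPM in Sham-OVA (SD, n = 7 and 5; 1.1 ± 0.23, adjusted p = 0.000604). It reached 0.5 RPM in 0 saline and 7 OVA libraries, so it was tested only because it was high after OVA and its call is no independent sign of a rise. In PM offspring it was 0.56 ± 0.23, adjusted p = 0.0451, a call lost in 13 of 25 alternatives. Its near-identical copy Spag6l, at 9.28 ± 1.13 RPM in Sham, was −2.32; reads of the pair could be split between them by the counting, so both values are uncertain.

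Of the 12 tektins and microtubule inner proteins, 7 were lower and 0 higher in Sham offspring (all genes 47.5% and 20.6%). In PM offspring 2 were higher and 0 lower (all genes 20.1% and 45.2%). Cfap126, at 12.5 RPM per kb the highest of this group per length, was at 17.7 to 23.9 RPM in PM and 27.3, 94, 70.8 and 57.2 RPM in PM-OVA, all above every PM library (1.46 ± 0.26, adjusted p = 0.000492). It was at 13.6 to 43.4 RPM in Sham and 15.7, 31.3, 48.5, 32 and 53.7 RPM in Sham-OVA (0.58 ± 0.31, adjusted p = 0.115). It was called higher there with median-of-ratios scaling (0.94), DESeq2 (1.08) and edgeR (1.12) and without Sham replicate 3 (0.73) or Sham-OVA replicate 1 (0.84). Tekt1, a filament protein inside the doublets, also rose in PM offspring, from a mean of 10.1 to 25.7 RPM (1.16 ± 0.29, adjusted p = 0.00374). Cfap161 had the lowest log2 fold change of the group in Sham offspring (−1.09 ± 0.29, adjusted p = 0.00384) and was 0.21 ± 0.28 in PM offspring. The first was not called with edgeR (−0.61) or quantile normalisation (−0.56), and the second was called higher with DESeq2 (0.77) and edgeR (0.76).

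Of the 20 other cilium-associated members, 1 was higher and 10 lower in Sham offspring (all genes 20.6% and 47.5%). In PM offspring 6 were higher and 3 lower (all genes 20.1% and 45.2%). Tmem212, a marker of ciliated cells with 19.1 RPM per kb, was at 11.5 to 15.1 RPM in PM and 16.8, 57.3, 47.1 and 32 RPM in PM-OVA, with no overlap (1.42 ± 0.27, adjusted p = 0.000664). Ccdc153, another such marker, went from a mean of 18.1 to 40.9 RPM (1.01 ± 0.26, adjusted p = 0.00408). In Sham offspring neither was called (0.15 ± 0.41 and −0.29 ± 0.35). With the length and GC trend removed, Ccdc153 was not called in PM offspring (0.45) and was called lower in Sham offspring (−0.88). Cfap58 was at 3.29 to 6.23 RPM in Sham and 0.486, 1.73, 0, 2.07 and 2.48 RPM in Sham-OVA, all lower (−1.87 ± 0.38, adjusted p = 0.000552). In PM offspring it was not called (−0.92 ± 0.45), although it was with array weights (−1.35) and without PM-OVA replicate 2 (−1.4). Cfap410 rose in both cohorts (0.90 ± 0.19, adjusted p = 0.000906, and 1.14 ± 0.19, adjusted p = 0.000363), and Cfap97 fell in both (−1.0 ± 0.25 and −1.05 ± 0.17), though not called in Sham offspring with the length and GC trend removed (−0.46).

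The choice by symbol also took in 3 Spag genes to which no role in the axoneme was assigned here. Spag7 was at 27.8 to 51.8 RPM in Sham and 108, 91.2, 152, 111 and 111 RPM in Sham-OVA (1.56 ± 0.17, adjusted p = 2.99e-06), and at 35.7 to 48.5 RPM in PM and 52.7, 102, 138 and 168 RPM in PM-OVA (1.43 ± 0.25, adjusted p = 0.000426). Spag9, a scaffold of the JNK pathway, was at 206 to 277 RPM in Sham and 44.4 to 97.4 RPM in Sham-OVA (−1.68 ± 0.17, adjusted p = 1.58e-06), and at 220 to 254 RPM in PM and 130, 101, 59.7 and 66.3 RPM in PM-OVA (−1.5 ± 0.19, adjusted p = 6.83e-05). Saline and OVA libraries of both genes did not overlap in either cohort. Spag4, a nuclear envelope gene, was called in neither. Without these 3 genes the median of the members was −0.82 in Sham and 0.17 in PM offspring.

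Maternal exposure was first compared without OVA. In PM against Sham, limma called 0 members, as it did 0% of all genes; 6 members and 4.35% of all genes had an unadjusted p under 0.05, and DESeq2 and edgeR on the recovered reads called 0 members. The member with the smallest p was Cfap221, a central apparatus protein, at 1.05 to 2.71 RPM in Sham and 0.672 to 1.71 RPM in PM, in overlapping ranges (log2 difference −0.53 ± 0.18, adjusted p = 0.898). Rsph10b, Dnaaf3, Cfap58 and Cfap69 were next, with log2 differences of −0.42, −0.31, −0.31 and −0.33.

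In PM-OVA against Sham-OVA, limma again called 0 members, as it did 0% of all genes, while 78 of the 83 log2 differences were above 0, with a median of 0.76 (all genes 0.01, with 52.3% above 0). An unadjusted p under 0.05 was found for 16 members and 1.86% of all genes, and DESeq2 and edgeR called 0 members. Dnah10 was the 1 member whose PM-OVA libraries, at 14.2 to 25.1 RPM, lay above all Sham-OVA libraries, at 2.08 to 13.2 RPM (1.32 ± 0.47, adjusted p = 1); 0.31% of all genes lay so, and 0 members and 0.298% of all genes lay below. Dnah12 had the smallest p, at 9.07, 7.03, 4.38 and 8.17 RPM in PM-OVA (1.36 ± 0.38, adjusted p = 1). Foxj1 averaged 181 ± 66 RPM in PM-OVA and 91.9 ± 53.8 RPM in Sham-OVA (SD, n = 4 and 5), a log2 difference of 1.2 ± 0.56 with a 95% interval from −0.05 to 2.44.

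The difference between the responses to OVA in PM and Sham offspring was tested as an interaction in 1 fit of all 4 groups. It called 0 members and 0% of all genes, and the smallest adjusted p among the members was 0.592. The median of the members was 0.96 on the log2 scale (all genes −0.01) and 77 of 83 values were above 0. An unadjusted p under 0.05 was found for 44 members and 5.08% of all genes, and DESeq2 and edgeR called 0 members. Cfap46 (1.73 ± 0.47), Dnah11 (1.45 ± 0.40), Dnah9 (1.64 ± 0.46) and Ccdc39 (1.56 ± 0.44) had an adjusted p of 0.592. The values of the members are not independent of each other, since they come from the same libraries. The count changed under 2 settings. With array weights, 25 of the 83 members were called (24 higher and 1 lower, against 651 and 3965 of all 16795 genes). Without the 3 shallowest OVA libraries, chosen after seeing the data, 21 were called (21 higher and 0 lower, against 612 and 109 of all genes), with 4 Sham-OVA and 2 PM-OVA libraries left.

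Members varied more between replicates than the median gene in all 4 groups. The median SD of a member on the log2 scale was 0.32 for Sham, 0.25 for PM, 0.71 for Sham-OVA and 0.64 for PM-OVA, against 0.26, 0.20, 0.48 and 0.54 for all genes. The mean log2(RPM + 0.5) over the 83 members was 2.88 to 3.3 in Sham and 2.82 to 3.11 in PM. In Sham-OVA it was 1.67, 2.27, 2.24, 2.43 and 3.08, where replicate 5 lay within the Sham range and the others below it. In PM-OVA it was 2.92, 3.69, 3.1 and 2.56, where replicate 2 lay above all saline libraries and replicate 4 below them. The median of all genes was also low in the shallowest libraries. It was 2.93 in Sham-OVA replicate 3, and 3.37 and 3.29 in PM-OVA replicates 3 and 4. Saline libraries had 4.00 to 4.21 and the other OVA libraries 3.71 to 4.10. In Sham-OVA replicate 3 and PM-OVA replicate 4 a low score of the members came with a low median of all genes. PM-OVA replicate 3 had a low median of all genes too, but a score within the saline range. The part of depth in these scores was not tested. Sham-OVA replicate 1 was the lowest of its group for 44 members and replicate 5 the highest for 56, while PM-OVA replicate 2 was the highest for 61 and replicate 4 the lowest for 45.

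Genes of other airway cells differed between the same libraries. The summed RPM of 14 club and secretory cell genes, a list that holds Scgb1a1, was 4013 in Sham-OVA replicate 1, 28770 in replicate 5 and 11171 to 19939 in the others, against 15002 to 37612 in Sham. In PM-OVA it was highest in replicate 2, at 36118, and lowest in replicate 1, at 6470, against 15280 to 25441 in PM. The sum can rest mostly on 1 gene: in Sham replicate 1, Scgb1a1 was at 13001 RPM of the 15002. The mean log2(RPM + 0.5) of the 14 genes averaged 5.09 in Sham and 6.07 in Sham-OVA, and 5.39 in PM and 6.63 in PM-OVA. It was 4.95 in Sham-OVA replicate 1, within the Sham range of 4.53 to 5.89. Of these 14 genes, 7 were higher and 5 lower in each cohort. Of all genes, 20.6% were higher and 47.5% lower in Sham offspring, and 20.1% and 45.2% in PM offspring. The 8 goblet cell genes, of mucus-making cells, were all called higher in both cohorts, with sums of 471 to 1931 RPM in Sham-OVA, lowest in replicate 1 and highest in replicate 5, and 1185 to 4922 RPM in PM-OVA, highest in replicate 2. The sum was 4.31 to 12.4 RPM in Sham and at most 6.77 RPM in PM apart from PM replicate 1, at 204 RPM. Of 12 genes shared by airway epithelial cells, 4 were higher and 4 lower in Sham offspring and 6 were higher and 3 lower in PM offspring. No gene of these 3 lists was at 0 in every library, and the part of airway cell content in the results was not tested.

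**Figure D4:**
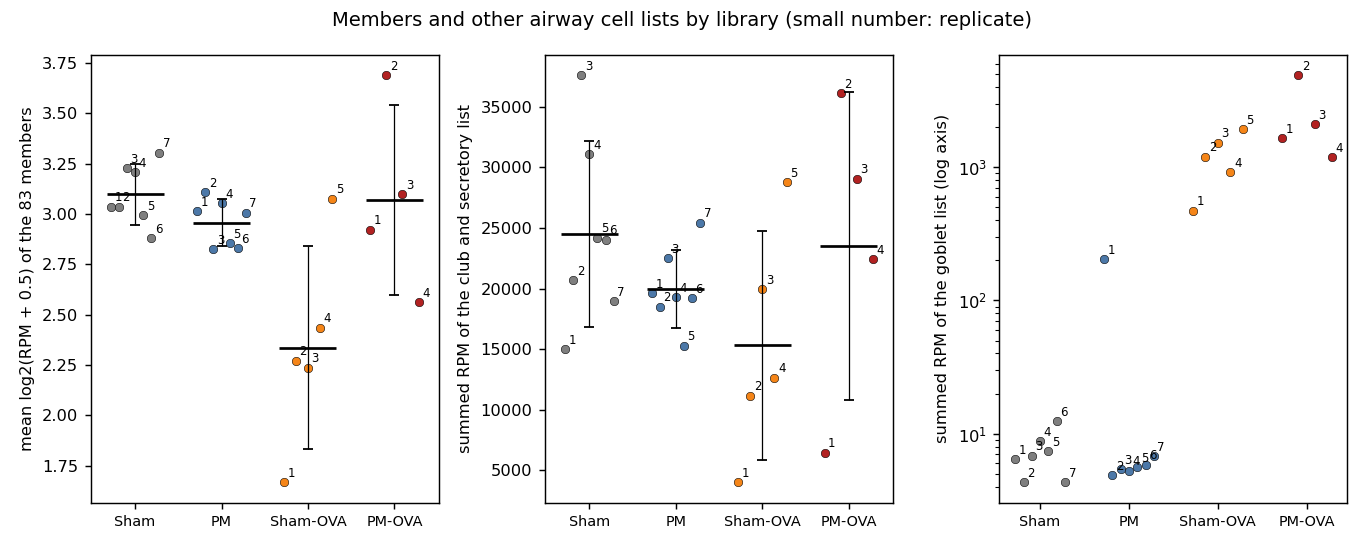
Each point is 1 library with its replicate number, by group: the mean log2(RPM + 0.5) of the 83 members, the summed RPM of the club and secretory list and, on a log axis, the summed RPM of the goblet list; lines and bars are means ± SD where drawn. In all 3 panels Sham-OVA replicate 1 is the lowest and replicate 5 the highest of its group, and PM-OVA replicate 2 is the highest of its group.

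Long transcripts had lower fold changes after OVA than short ones, among the members and among all genes. Over the 83 members, Pearson's r of the log2 fold change with log2 transcript length was −0.42 in Sham and −0.34 in PM offspring, and over 16646 genes −0.34 and −0.36; genes are not independent replicates, and these are descriptions. Among transcripts up to 2.23 kb, the median of the members was −0.61 in Sham and 0.30 in PM offspring, and that of all genes of this length was 0.06 and 0.09. Among those over 4.17 kb, the median of the members was −1.06 and 0.01, and that of all genes −0.94 and −0.90. Members thus lay furthest from genes of like length among short transcripts in Sham offspring and among long ones in PM offspring. With the trend over length and GC content removed, 4 members were higher and 44 lower in Sham offspring (18.4% and 46.2% of all genes), and 23 higher and 12 lower in PM offspring (17.6% and 44.4%).

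**Figure D5:**
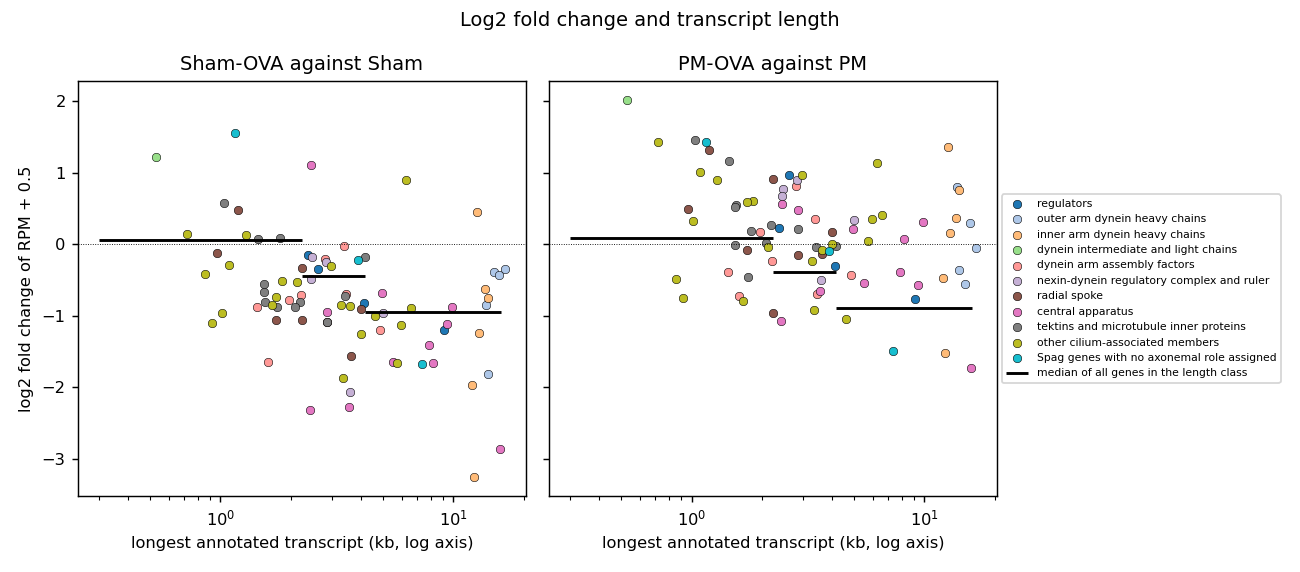
Log2 fold change of each member (points, coloured by role) against the length of its longest annotated transcript (kb, log axis), for Sham offspring on the left and PM offspring on the right. Black bars give the median of all genes in each length class, which goes from 0.06 to −0.94 on the left and from 0.09 to −0.90 on the right.

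Other genes of cilia, which the choice by symbol did not take, were described from lists compiled by hand. Of 65 further genes of motile cilia, 2 were higher and 35 lower in Sham offspring, and 21 higher and 8 lower in PM offspring, with medians of −0.69 and 0.18. Of all genes, 20.6% were higher and 47.5% lower in Sham offspring, and 20.1% and 45.2% in PM offspring, with medians of −0.48 and −0.43. Tppp3, a tubulin-binding gene of ciliated cells, was called in neither cohort (−0.31 ± 0.19 and 0.18 ± 0.23). Its call and sign turned with the setting: it was called higher in PM offspring with DESeq2 (0.66) and lower in both with the length and GC trend removed (−1.06 and −0.61). Cdhr3, a cadherin of ciliated cells, rose in PM offspring from 16.7 ± 1.58 to 45.5 ± 19.2 RPM (SD, n = 7 and 4; 1.29 ± 0.27, adjusted p = 0.0013). It was 0.14 and not called in Sham offspring, although it was called higher with DESeq2 (0.86), edgeR (0.87) and without Sham-OVA replicate 1 (0.54). Of 39 genes of intraflagellar transport, which carries cargo in motile and other cilia, 5 were higher and 24 lower in Sham offspring, and 7 higher and 19 lower in PM offspring, with medians of −0.92 and −0.50. The counts of these transport genes in PM offspring lay near the shares of all genes. Of 16 genes of multiciliogenesis and of deuterosomes, which make the many basal bodies, 4 were higher and 3 lower in Sham offspring. In PM offspring 5 were higher and 5 lower, and the medians were −0.26 in Sham and 0.36 in PM offspring. Foxn4, Cep152, Cep63 and Stil were higher in both cohorts, and Gmnc and Ccp110 lower in both. E2f5 was lower in Sham offspring alone, and E2f4, Plk4 and Cep41 in PM offspring alone. Gmnc, which acts at the start of that programme, fell in both, from 1.74 ± 0.559 to 0.104 ± 0.0837 RPM in Sham offspring (−1.86 ± 0.21, adjusted p = 2.94e-06) and from 1.65 ± 0.883 to 0.265 ± 0.446 RPM in PM offspring (−1.55 ± 0.35, adjusted p = 0.00212; not called with all libraries thinned to 1 depth, at −1.04). Myb, another early factor, was called higher in PM offspring (0.67 ± 0.23, adjusted p = 0.023), but not with array weights (0.51) or without PM-OVA replicate 2 (0.48), and was −0.31 ± 0.33 in Sham offspring.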

How the data were processed

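Lung RNA-Seq of 23 offspring was analysed, with groups taken from the maternal exposure and challenge in the labels. The authors deposited 1 table of RPM. It is called a table of RPKM, for which the tests had been designed, but in every library at least 99.9886% of the values came out as whole reads (within 0.01), whatever the gene's length, and those reads were recovered. By the methods, Trimmomatic, Bowtie2 (GRCm38) and SeqMonk made the table. Since Bowtie2 is not splice-aware, reads across junctions may be missing. The kit keeps strand, but the strand setting of the counting is not given in the sources used here, so overlapping antisense genes cannot be told apart. The labels name the tissue Lung (RML) and the methods the right lower lobe.

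Tests used log2(RPM + 0.5) in limma 3.58.1 (R 4.3.3) with a variance trend and Benjamini-Hochberg adjustment over 16795 genes, those that reached 0.5 RPM in 4 or more libraries. The interaction was fitted on all 4 groups. As alternatives, edgeR 4.0.16 (quasi-likelihood test) and DESeq2 1.42.0 were run on the recovered reads, scalings, filters and pseudocounts were changed, and each library was left out. The statistics were tested on simulated data. Members and lists were chosen with earlier results of these data known. Described in full were the regulators, Spag4, Spag7 and Spag9, members called in opposite directions, the highest level per kb and the extreme fold changes of each role, and the 5 smallest p of each comparison; Spag16, Spag6l, Tekt1, Ccdc153, Cdhr3, Gmnc and Myb were named after their values were seen. Transcript lengths come from GENCODE (GRCm38).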

Additional observations from a re-analysis of the deposited data

Results flagged for a closer look

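For the 42 members with full values and for the mean over the 83 members, each of the 4 groups was examined for a sample far from the others, by the gap of its highest or lowest value to the nearest one relative to the whole range. This singled out 10 of 172 groups of values, and chance singles out about 1 in 20. Sham replicate 7 was far above the other Sham samples for the inner arm chain Dnah10 (23.3 RPM, next 14.6) and the central apparatus gene Cfap46 (16.1 RPM, next 9.76). Sham replicate 4 was so for the assembly factor Dnaaf2 (9.51 RPM, next 6.51) and for Mcidas (0.888 RPM, next 0.507). Sham replicate 3 was high for Rsph1 (20.6 RPM, next 11.4), and PM replicate 1 for the tektin Tekt3 (1.44 RPM, next 0.856). In Sham-OVA, replicate 3 was high for Dnah6 (136 RPM, next 41.8) and low for Dnah8, an outer arm chain (7.77 RPM, next 17.5), and replicate 5 was high for Dnah12 (5.19 RPM, next 2.49). PM-OVA replicate 1 held Rsph3b at 0.605 RPM, and the other 3 libraries of the group listed it at 0.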

How the results depend on the processing

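The count of members called in Sham-OVA against Sham was 52, and was 32 with quantile normalisation, 31 with edgeR and 36 with DESeq2. At the stricter threshold of the study it was 0 with limma and, chosen after seeing the data, 6 with DESeq2 and 1 with edgeR. The median of the members there was −0.28 with quantile normalisation and −0.37 with edgeR. In PM-OVA against PM the count was 33, and was 18 with a replicate block (12 higher, 6 lower) and, at the stricter threshold, 0 with limma, 12 with DESeq2 and 0 with edgeR. The median in PM offspring was 0.60 with quantile normalisation, 0.62 with DESeq2 and 0.62 with edgeR, and −0.06 with array weights. The block gave 43 members in Sham offspring and 0 in the other comparisons; the numbers are not known to pair the samples. The deviations of same-numbered samples correlated at −0.07 to 0.12 in Sham-OVA against Sham, −0.10 to 0.06 in PM-OVA against PM, −0.25 to 0.10 in PM against Sham and −0.31 to 0.62 in PM-OVA against Sham-OVA. By the numbers in the library names, which differ from those of the titles in the OVA groups, they ran from −0.63 to 0.29 over the 4 comparisons. The interaction called 0 members, but 25 with array weights and 21 without the 3 shallowest OVA libraries, an alternative chosen after seeing the data, which gave 58 in Sham and 25 in PM offspring. With all libraries thinned to 1 depth the counts were 45 and 26. The causes of these changes were not tested. Shares of all genes are not given for the block, the 1 depth or the fits of each cohort without the 3 shallowest OVA libraries. Nor are they given for the fits without 1 library below, apart from those without Sham replicate 1 and without PM-OVA replicate 2. Those counts therefore describe the members alone and do not set them apart from other genes. Leaving out 1 library at a time, Sham offspring had 47 (without Sham-OVA replicate 2) to 59 (without Sham-OVA replicate 5) members called and a median of −0.97 to −0.59. PM offspring had 25 to 37 and a median of −0.10 (without PM-OVA replicate 2) to 0.32. PM against Sham, PM-OVA against Sham-OVA and the interaction had 0 in every case, with medians of −0.17 to −0.09, 0.52 to 0.96 and 0.68 to 1.19. Of the genes described, these changed sign and were called before or after the change: Dnaaf2 in Sham offspring was 0.46 with quantile normalisation and 0.43 with edgeR, Dnah8 and Rfx3 in PM offspring were 0.73 and 0.24 with the length and GC trend removed, Tppp3 in PM offspring was −0.61 with that trend removed, and Rsph10b in PM offspring was 0.67 without the 3 shallowest OVA libraries. Over all alternatives, 1050 of the values of the 42 members with full values in Sham offspring and 984 in PM offspring kept direction and call, 54 and 60 lost the call and 24 and 41 gained one. Low members are least certain in Sham-OVA replicate 3, where 1 read was worth 0.311 RPM.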
